A study of Mus musculus with 9 samples.

Results

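The genes described here encode the machinery that copies DNA: the factors that license origins of replication, the replicative helicase and its activators, the polymerases and primase, the sliding clamp with its loader and joining enzymes, and proteins that protect the fork and reassemble chromatin behind it. The set was fixed by name, as 50 gene symbols, and was chosen with earlier results of these data known. A probe set annotated to the symbol alone was found for 49 of them, out of 18193 genes with such a probe set, and Chaf1a is not analysed here. Where a gene had several, the probe set of highest mean level was used, and all 49 genes passed the filter on low values. RNA came from invariant natural killer T (iNKT) cells, T cells of nearly fixed receptor that recognise lipids on CD1d, sorted from mouse thymus. Knockout samples lacked Utx (n = 4 arrays, KO1 to KO4), and wildtype samples carried it (n = 5 arrays, WT1 to WT5). Animals of both genotypes were 8 to 12 weeks old and matched for sex, and each array is labelled as a biological replicate. Utx, encoded by Kdm6a, is a histone demethylase that removes a repressive methyl mark. The sources used here do not name the strain, the allele, the cells in which Utx was deleted, the gate of the sort or the number of animals behind an array. The title of the series poses the question of how Utx controls gene programmes of these cells, and for the present genes this becomes whether the replication machinery was expressed at another level without Utx.

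DNA replication begins at origins bound by the origin recognition complex (Orc subunits), on which Cdc6 and Cdt1 load the ring-shaped Mcm helicase in G1 phase. In S phase the kinase Cdc7 with Dbf4, together with cyclin-dependent kinases, recruits Cdc45 and the GINS complex, which switch the helicase on, while geminin (Gmnn) binds Cdt1 and keeps an origin from being licensed again. Polymerase alpha with primase starts each strand, polymerases delta and epsilon extend it, and transcription of many of these genes is driven by E2F factors at the entry into S phase. In the thymus, replication is most active in blasts at early stages of T cell development and in young iNKT cells that expand after selection, whereas mature iNKT cells of the thymus divide little.

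Values are log2 expression levels, and differences are knockout minus wildtype, fitted by limma with batch as a factor. The titles name 3 batches: batch 1 holds KO1 and WT1, batch 2 holds KO2, KO3, KO4 and WT2, and batch 3 holds WT3, WT4 and WT5, so that the difference is taken within batches 1 and 2. In this fit the batch term had an unadjusted p under 0.05 for 0 of 14524 genes tested, and over these genes the deviations of KO1 and WT1 from the means of their genotypes correlated at r = -0.92. The sources used here do not say whether batch had been removed before deposit. Arrays of batch 3 inform the spread and not the difference. Without WT2 the difference rests on KO1 and WT1, and without either of these it rests on batch 2, so that those fits are identical. Median levels lay between 5.97 and 6.09 on all 9 arrays, but the spread of levels was less equal. Interquartile ranges were 3.92, 3.80, 4.10 and 4.29 on KO1 to KO4 and 3.84, 3.45, 3.66, 3.65 and 3.70 on WT1 to WT5. The part of this spread in the differences below was not tested. With another quantile normalization, which makes the spread equal, the median difference of the 49 genes was 0.79 in place of 0.94. It left 27 of them called in place of 33. Kdm6a read 10.01, 9.62, 10.05 and 10.07 on KO1 to KO4 and 9.94, 9.98, 10.15, 9.79 and 9.996 on WT1 to WT5 (difference -0.01, adjusted p = 0.974), and its other probe sets differed by -0.46, -0.23 and 0.52 (adjusted p = 0.229, 0.660 and 0.127). Since the deleted part of the gene is not known here, the genotype labels could not be checked by them. The T cell and iNKT genes Cd3e (12.85 ± 0.14 in knockout and 12.87 ± 0.05 in wildtype cells, mean ± SD, n = 4 and n = 5) and Zbtb16 (10.72 ± 0.21 in knockout and 10.95 ± 0.19 in wildtype cells) lay well above the filter level of 4.54 in both genotypes. Of 8 such genes past the filter, Thy1 was higher (0.89, adjusted p = 0.0391), and Tbx21 (-1.08, 0.0276) and Il2rb (-1.01, 0.0231), both genes of mature iNKT cells, were lower.

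Most genes of the replication machinery were more highly expressed in knockout than in wildtype iNKT cells. Of the 49 genes, 33 were higher and 0 lower at an adjusted p under 0.05 (67.3%), and 16 did not pass, whereas of all 14524 genes tested 7.88% were higher and 3.37% lower. The median difference of the 49 genes was 0.94, beside 0.11 over all genes tested, and 48 of the 49 differences were positive. Of the 33 genes, 22 rose at least 2-fold, against 5.70% of all genes tested. Differences of the 33 ran from 0.56 for Pold3, a subunit of polymerase delta, to 2.69 for the licensing factor Cdc6. For 41 of the 49 genes every knockout array lay above every wildtype array, which held for 22.2% of all genes tested. For 0 of the 49 every knockout array lay below, against 12.7% of all genes.

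**Figure D1:**
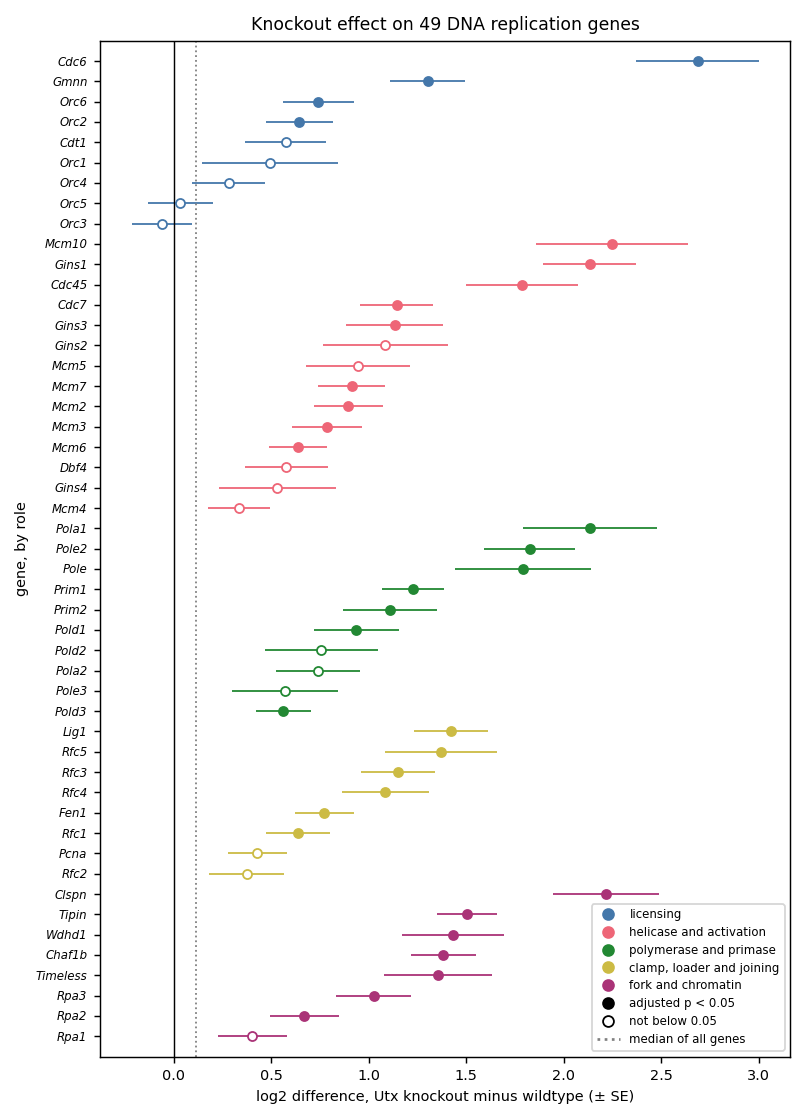
Fitted log2 difference (Utx knockout minus wildtype, x axis, with its SE) of each of the 49 replication genes, grouped by role along the y axis. Filled points passed an adjusted p of 0.05. All points but that of Orc3 lie right of 0, and Orc3, Orc4 and Orc5 lie nearest to the dotted line, the median of all genes tested (0.11).

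The knockout arrays were not alike in this. KO2 was the lowest of the knockout arrays for 42 of the 49 genes, and KO4 the highest for 28. Relative to the wildtype mean of each gene, the median of the 49 genes was 0.90 on KO1, 0.70 on KO2, 0.88 on KO3 and 1.12 on KO4. On wildtype arrays this median ran from -0.07 to 0.15, with WT4 the highest wildtype array for 31 genes. By this median every knockout array, KO2 included, lay above every wildtype array.

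**Figure D2:**
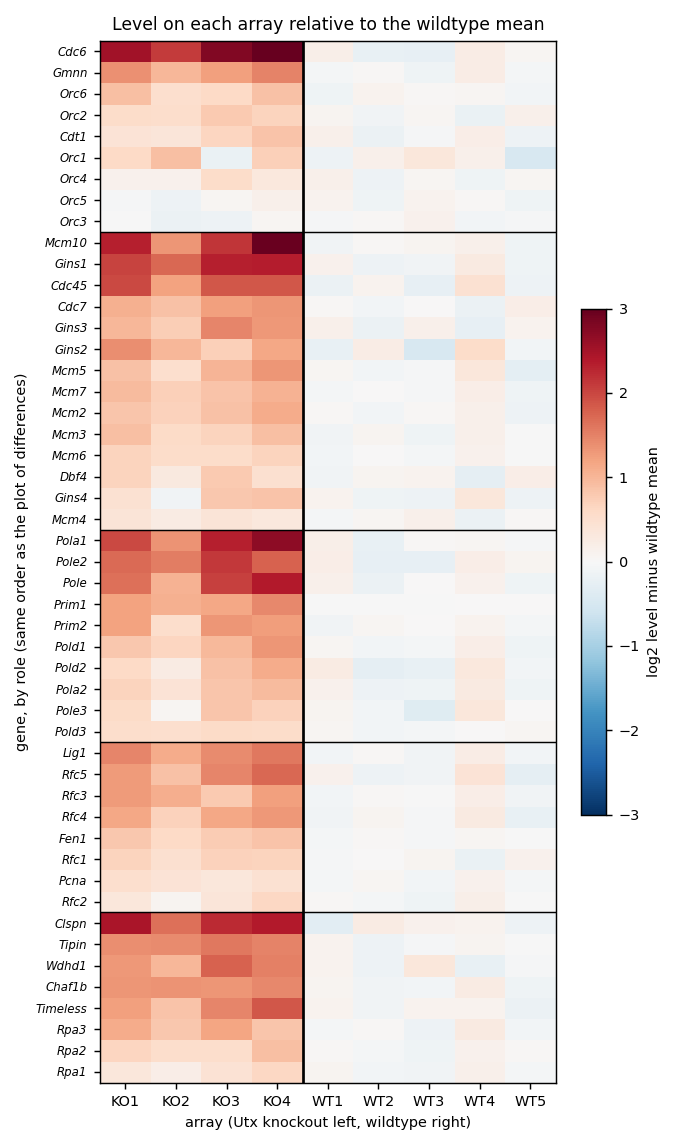
Level on each array minus the mean of the wildtype arrays (log2, colour) for the 49 genes (rows, by role) on KO1 to KO4 (left of the black line) and WT1 to WT5 (right of it). The knockout columns are red in nearly all rows, with KO2 palest at a median of 0.70.

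Some markers of other thymic cells were higher in knockout cells too. Double-positive thymocytes carry CD4 together with CD8 and are the precursors of iNKT cells, and of 12 of their markers 8 were higher and 0 lower in knockout cells, with a median difference of 1.01 (2.17 for Ptcra and 0.69 for Cd4). Their summed linear signal was 38926 to 56257 on knockout arrays and 21215 to 29373 on wildtype arrays. Relative to the wildtype mean their median was 1.30, 0.67, 0.96 and 1.14 on KO1 to KO4, lowest on KO2 as for the replication genes but highest on KO1 instead of KO4. Among wildtype arrays it was highest on WT2 (0.24), where the median of the 49 genes was -0.07. None of the 12 markers lay below the filter level. Of 12 macrophage and dendritic cell markers past the filter, 3 were higher (summed signal of all 13 measured 1579 to 3107 on knockout and 556 to 920 on wildtype arrays), led by Csf1r with 4.05, and of 5 B cell markers 2 were higher (1101 to 2238 on knockout and 609 to 990 on wildtype arrays). Of the knockout arrays, KO2 had the lowest median of the macrophage and dendritic cell markers (0.25) and KO4 that of the B cell markers (0.50). The erythroid genes Hba-a1, Klf1 and Alas2 lay below the filter level on average. The part of such cells in the higher replication genes was not tested. In RNA of a sorted population, more cells in S phase and more RNA of these genes per cell cannot be told apart. Mki67, a marker of cycling cells, averaged 12.30 ± 0.26 in knockout and 10.93 ± 0.35 in wildtype cells (difference 1.37, adjusted p = 0.0229). Without WT1 or KO1 it was not called (adjusted p = 0.0712). Of 4 proliferation markers measured, Mki67 among them, 4 were higher, against 7.88% of all genes tested. Relative to the wildtype mean their median was 1.63, 1.08, 1.28 and 1.39 on KO1 to KO4. This median was highest on KO1 and, among wildtype arrays, on WT2 (0.26), as for the double-positive markers.

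Among licensing factors, on the probe sets used, the regulators Cdc6 and geminin rose most, while most subunits of the origin recognition complex did not pass the test. Of the 9 genes, 4 were higher and 0 lower (44.4%), with a median difference of 0.57. Cdc6, the ATPase that loads the helicase with Cdt1, read 10.16, 9.76, 10.42 and 10.88 on KO1 to KO4, against 7.83, 7.43, 7.42, 7.89 and 7.71 on WT1 to WT5. The lowest knockout array lay well above the highest wildtype array, and the fitted difference was 2.69 (SE 0.31), 6.44-fold, with adjusted p = 0.00386. Gmnn, the inhibitor of Cdt1 that accumulates from S phase to mitosis, read 11.46, 11.08, 11.32 and 11.57 in knockout and 10.01, 10.12, 9.95, 10.30 and 10.03 in wildtype cells, again with no overlap (difference 1.30, SE 0.19, 2.46-fold, adjusted p = 0.00732). Cdc6 and Gmnn were called in all 9 fits with 1 array left out.

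Of the 6 Orc subunits, 2 passed the test on the probe sets used. Orc6, the smallest subunit, read 10.54, 10.15, 10.22 and 10.51 on knockout and 9.51, 9.74, 9.68, 9.70 and 9.54 on wildtype arrays (difference 0.74, adjusted p = 0.0367). Orc2 read 9.68, 9.66, 9.91 and 9.79 on knockout and 9.22, 9.03, 9.19, 8.94 and 9.28 on wildtype arrays (difference 0.64, adjusted p = 0.0473). Neither gene's groups overlapped, but both calls ended in 8 of the 9 fits without 1 array, all but the fit without KO2 (adjusted p 0.0292 to 0.125 for Orc6 and 0.0496 to 0.470 for Orc2). By contrast Orc3 read 10.75, 10.60, 10.62 and 10.83 on KO1 to KO4 and 10.73, 10.79, 10.90, 10.68 and 10.72 on WT1 to WT5. Orc5 read 8.85, 8.73, 8.96 and 9.05 on knockout and 8.99, 8.77, 9.004, 8.94 and 8.77 on wildtype arrays. The genotypes overlapped for both of these core subunits, whose differences were -0.06 (95% interval -0.42 to 0.30, adjusted p = 0.815) and 0.03 (-0.35 to 0.42, adjusted p = 0.910). A rise of 2-fold, 1 on the log2 scale, lies outside both intervals. The signs of these 2 differences and that of Orc4 (0.28, adjusted p = 0.340) turned without WT2 (0.02, -0.14 and -0.02). Cdt1, which brings the helicase to the origin, did not overlap between genotypes, yet its difference of 0.57 (95% interval 0.10 to 1.04) had an adjusted p of 0.104. Orc1, the largest subunit and whose level cycles in human cells, had 0.49 (adjusted p = 0.365) on the probe set used. Its other probe set, of nearly equal mean level (6.16 beside 6.29), had 1.30 (adjusted p = 0.00899 in the limma fit over all probe sets).

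The promoters of Cdc6 and Orc3 are shown because these genes mark the ends of the licensing group, and both hold a core of the E2F binding motif, in capitals. They span 250 bases before to 50 after the start of transcription, 5′ to 3′ along the gene, from RefSeq on GRCm38.p6, at chr11:98907901-98908200 (plus strand) for Cdc6 and chr4:34614893-34615192 (minus strand) for Orc3.
Cdc6: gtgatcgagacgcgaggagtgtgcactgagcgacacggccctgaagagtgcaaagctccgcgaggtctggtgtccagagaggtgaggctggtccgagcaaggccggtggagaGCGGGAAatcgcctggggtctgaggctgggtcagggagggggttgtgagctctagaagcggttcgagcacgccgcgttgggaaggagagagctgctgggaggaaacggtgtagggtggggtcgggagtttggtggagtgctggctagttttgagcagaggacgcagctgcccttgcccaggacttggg
Orc3: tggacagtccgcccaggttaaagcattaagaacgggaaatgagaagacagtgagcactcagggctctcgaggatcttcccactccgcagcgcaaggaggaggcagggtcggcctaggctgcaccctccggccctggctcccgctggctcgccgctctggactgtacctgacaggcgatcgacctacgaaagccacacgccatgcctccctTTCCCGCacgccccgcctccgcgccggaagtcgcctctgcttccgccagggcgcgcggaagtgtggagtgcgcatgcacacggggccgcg
The match of Cdc6 begins at position -138 from the start site and that of Orc3 at -40, and the gene that rose 6.44-fold and the gene with a difference of -0.06 thus each carry 1 match in this window.

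**Figure D3:**
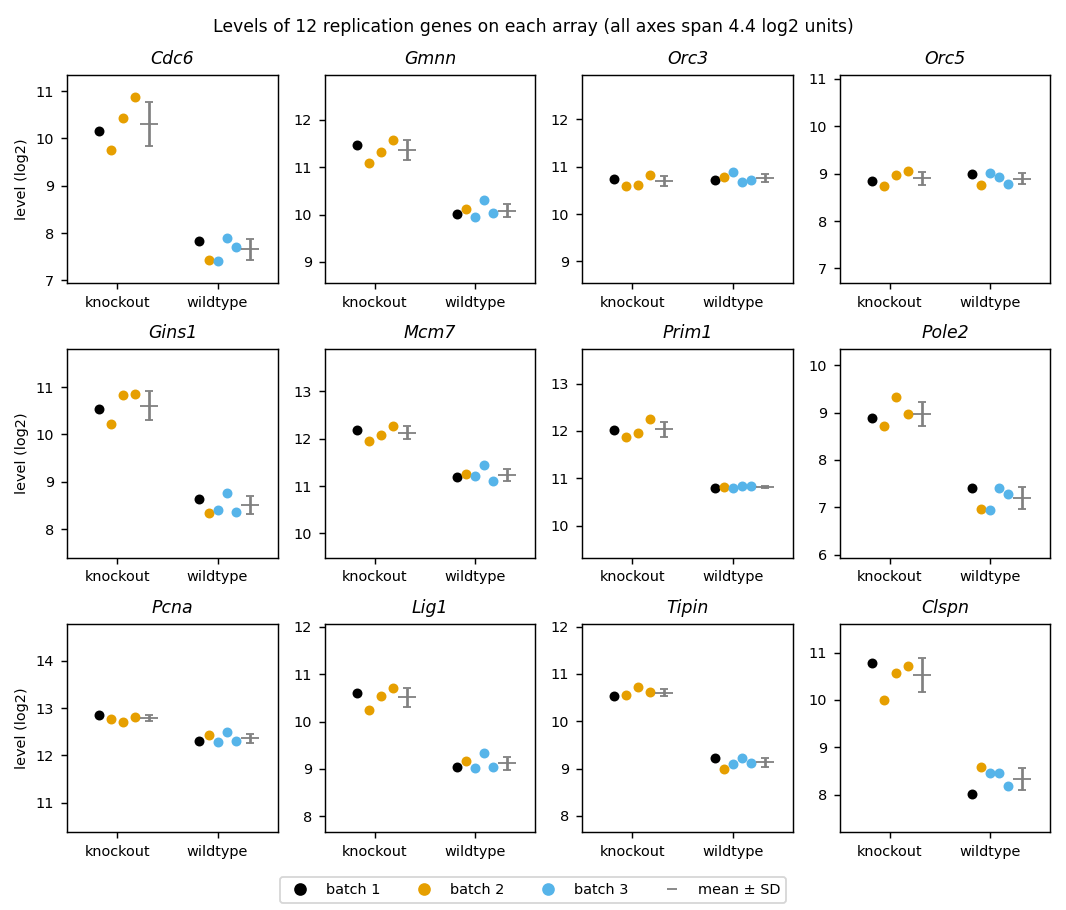
Level (log2, y axis) of 12 replication genes on each knockout array (left) and wildtype array (right), with the mean and SD in grey and the batch in colour, all y axes spanning an equal range. Orc3 and Orc5 overlap between genotypes, while the other 10 genes do not.

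Among genes of the helicase and its activation, the largest differences belonged to Mcm10, Gins1 and Cdc45, which act as the loaded ring is switched on. Of 14 genes, 9 were higher and 0 lower (64.3%), all 14 differences were positive, and the median was 0.93. Gins1, of the GINS complex, read 10.54, 10.21, 10.84 and 10.85 on KO1 to KO4 and 8.64, 8.35, 8.40, 8.77 and 8.37 on WT1 to WT5 (difference 2.13, SE 0.24, 4.39-fold, adjusted p = 0.00330). Cdc45, which rides with GINS on the active helicase, read 9.60, 8.83, 9.48 and 9.48 on knockout arrays, KO2 being lowest, and 7.45, 7.72, 7.38, 8.07 and 7.47 on wildtype arrays (difference 1.79, SE 0.29, adjusted p = 0.00956). Both were called in each fit without 1 array, on these probe sets. Mcm10, needed for helicase activation and not part of the ring despite its name, read 9.33, 8.34, 9.15 and 9.98 on knockout and 6.89, 7.03, 7.08, 7.15 and 6.87 on wildtype arrays. Its knockout arrays spread over more than its wildtype arrays (SD 0.67 for knockout and 0.12 for wildtype), and its difference was 2.25 (SE 0.39, adjusted p = 0.0118).

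The kinase Cdc7, which phosphorylates the loaded ring, read 11.28, 11.10, 11.46 and 11.53 on knockout arrays and 10.26, 10.14, 10.23, 10.04 and 10.40 on wildtype arrays (difference 1.14, SE 0.19, adjusted p = 0.0101), while its activating subunit Dbf4 had a difference of 0.58 (95% interval 0.09 to 1.06, adjusted p = 0.110). Among the other GINS subunits, Gins3 rose (1.13, adjusted p = 0.0260), Gins2 had 1.08 (adjusted p = 0.0633), and Gins4 read 9.68, 9.12, 10.03 and 10.08 on knockout and 9.32, 9.10, 9.07, 9.55 and 9.07 on wildtype arrays. The groups of Gins4 overlapped through KO2, and its difference was 0.53 (95% interval -0.16 to 1.22, adjusted p = 0.263).

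The 6 subunits of the Mcm2 to Mcm7 ring differed by 0.34 to 0.94, with a median of 0.84, and 4 of them were called: Mcm2 (0.89, adjusted p = 0.0182), Mcm3 (0.78, 0.0298), Mcm6 (0.64, 0.0326) and Mcm7 (0.91, 0.0157). Mcm5 had 0.94 (adjusted p = 0.0563). Mcm4 read 11.93, 11.78, 11.93 and 11.86 on KO1 to KO4 and 11.47, 11.60, 11.68, 11.37 and 11.59 on WT1 to WT5, so that knockout arrays lay above all wildtype arrays by a narrow margin (difference 0.34, 95% interval -0.03 to 0.70, adjusted p = 0.188). Within the ring every subunit was higher on every knockout array than on any wildtype array. Leaving out WT2 left 2 of the 14 genes called, Cdc45 and Gins1, and ended the calls of Mcm2, Mcm7, Mcm10 and Cdc7 (adjusted p = 0.187 for Mcm2) as well as those of Mcm3, Mcm6 and Gins3, which also ended without other arrays.

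Mcm6 is printed for the helicase because its promoter held more E2F cores than any other of these genes, 5 in the window at chr1:128359656-128359955 (minus strand) of GRCm38.p6 (RefSeq, capitals mark the cores).
Mcm6: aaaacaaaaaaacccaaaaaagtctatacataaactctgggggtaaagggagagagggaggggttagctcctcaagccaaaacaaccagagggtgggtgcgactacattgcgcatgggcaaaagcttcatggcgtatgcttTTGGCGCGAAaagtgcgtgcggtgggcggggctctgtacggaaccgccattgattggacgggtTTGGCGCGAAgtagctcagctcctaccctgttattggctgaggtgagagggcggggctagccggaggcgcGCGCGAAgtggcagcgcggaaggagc
At 2 places cores of opposite strands overlap, which gives runs of capitals longer than the core, beginning at positions -109 and -46 from the start of transcription.

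Each of the 3 replicative polymerases had subunits that rose. Of 10 genes, 7 were higher and 0 lower (70.0%), with a median of 1.02. Pole2, the B subunit of the leading strand polymerase epsilon, read 8.89, 8.72, 9.33 and 8.97 on KO1 to KO4 and 7.40, 6.96, 6.95, 7.41 and 7.27 on WT1 to WT5 (difference 1.83, SE 0.23, 3.54-fold, adjusted p = 0.00450). Prim1, the catalytic subunit of primase, which makes the RNA primers, read 12.03, 11.88, 11.96 and 12.25 in knockout cells and 10.80, 10.81, 10.80, 10.83 and 10.83 in wildtype cells. The wildtype arrays agreed within 0.03, and the difference was 1.23 (SE 0.16, adjusted p = 0.00458). Batch 1 gave 1.23 and batch 2 gave 1.22. Pola1, the catalytic subunit of polymerase alpha, which extends those primers, read 9.002, 8.36, 9.35 and 9.70 on knockout and 7.19, 6.79, 7.05, 7.08 and 6.98 on wildtype arrays (difference 2.14, SE 0.34, 4.39-fold, adjusted p = 0.00956). Pole, the catalytic subunit of polymerase epsilon, read 9.52, 8.90, 9.91 and 10.25 on knockout and 8.03, 7.70, 7.87, 8.01 and 7.74 on wildtype arrays (difference 1.79, SE 0.35, adjusted p = 0.0171). For both catalytic subunits KO2 was the lowest and KO4 the highest knockout array, and no array overlapped.

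Differences between subunits of a complex were not tested. In polymerase alpha the second subunit Pola2 had 0.74 (adjusted p = 0.0609), and the regulatory primase subunit Prim2 1.11 (adjusted p = 0.0254). In polymerase delta, which makes most of the lagging strand, the catalytic Pold1 had 0.94 (adjusted p = 0.0325), Pold3 0.56 (adjusted p = 0.0400, and 1.30 and 0.83 on its other probe sets) and Pold2 0.76 (adjusted p = 0.122). Pold2 read 9.32, 8.97, 9.60 and 9.84 on knockout and 8.97, 8.44, 8.49, 9.04 and 8.64 on wildtype arrays, and KO2 lay within the range of the wildtype arrays. Pole3, a histone-fold subunit of polymerase epsilon that also serves in chromatin remodelling, read 8.03, 7.51, 8.28 and 8.14 on knockout and 7.54, 7.36, 7.09, 7.79 and 7.46 on wildtype arrays, and its groups overlapped (difference 0.57, 95% interval -0.05 to 1.19, adjusted p = 0.191). The calls of Pole2 and Prim1 were kept in each fit without 1 array. Without WT2 they were the 2 polymerase genes still called, with adjusted p of 0.0962 for Pola1 and 0.187 for Pole. The call of Pold3 was made in 1 of the 9 fits, that of Pold1 in 4 and that of Prim2 in 5.

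Prim1 is shown because its wildtype arrays had the smallest SD of the 49 genes and its 2 batches gave nearly equal differences. Its promoter at chr10:128014965-128015264 (plus strand) of GRCm38.p6 (RefSeq) holds 1 E2F core in capitals, beginning at position -15 from the start of transcription.
Prim1: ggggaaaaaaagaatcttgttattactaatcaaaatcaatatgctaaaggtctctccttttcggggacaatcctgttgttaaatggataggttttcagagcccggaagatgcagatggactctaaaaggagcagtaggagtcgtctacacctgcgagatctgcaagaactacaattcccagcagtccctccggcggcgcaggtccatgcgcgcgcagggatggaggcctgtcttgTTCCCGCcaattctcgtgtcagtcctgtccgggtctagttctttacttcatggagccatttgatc

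Enzymes that finish the lagging strand and most subunits of the clamp loader rose, and the clamp itself did not pass. Of 8 genes, 6 were higher and 0 lower (75.0%), with a median of 0.93. Lig1, the ligase that seals Okazaki fragments, read 10.60, 10.24, 10.53 and 10.70 on KO1 to KO4 and 9.03, 9.16, 9.02, 9.35 and 9.05 on WT1 to WT5 (difference 1.42, SE 0.19, 2.68-fold, adjusted p = 0.00499). Fen1, the flap nuclease that trims those fragments, read 12.89, 12.67, 12.85 and 12.95 on knockout and 12.02, 12.12, 12.05, 12.15 and 12.07 on wildtype arrays. No array overlapped, and the difference was 0.77 (SE 0.15, adjusted p = 0.0179). Of the clamp loader, Rfc3 read 8.99, 8.802, 8.50 and 8.95 in knockout and 7.63, 7.74, 7.70, 7.90 and 7.61 in wildtype cells (difference 1.15, SE 0.19, adjusted p = 0.0102), and Rfc4 11.04, 10.59, 11.05 and 11.18 on knockout and 9.77, 9.97, 9.86, 10.16 and 9.67 on wildtype arrays (difference 1.09, SE 0.22, adjusted p = 0.0217). Rfc5 (1.37, adjusted p = 0.0227) and the large subunit Rfc1 (0.64, adjusted p = 0.0423) rose too.

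Pcna, the sliding clamp that tethers polymerases to DNA, read 12.86, 12.78, 12.71 and 12.81 on knockout arrays and 12.30, 12.43, 12.29, 12.50 and 12.31 on wildtype arrays. These do not overlap, but the difference of 0.43 (95% interval 0.08 to 0.77) had an adjusted p of 0.0988. Rfc2 read 10.62, 10.35, 10.62 and 10.89 on knockout and 10.31, 10.20, 10.14, 10.44 and 10.25 on wildtype arrays, overlapping through KO2 (difference 0.37, 95% interval -0.06 to 0.81, adjusted p = 0.219). Lig1 and Rfc3 kept their calls in each fit without 1 array and were the 2 clamp genes called without WT2. The calls of Fen1 (adjusted p up to 0.0840) and Rfc4 (up to 0.0836) ended without WT1, WT2 or KO1, that of Rfc4 also without KO3. Rfc1 was called in 2 of the 9 fits (adjusted p up to 0.207), and the call of Rfc5 ended without WT2 or KO3 (up to 0.227).

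Fork protection and chromatin assembly genes had the largest share of calls of the 5 roles in this fit. Of 8 genes measured, 7 were higher and 0 lower (87.5%), with a median of 1.37. Tipin, which binds Timeless and steadies a stalled fork, read 10.53, 10.56, 10.72 and 10.62 on KO1 to KO4 and 9.23, 8.99, 9.10, 9.22 and 9.12 on WT1 to WT5 (difference 1.503, SE 0.15, 2.83-fold, adjusted p = 0.00292). Chaf1b, a subunit of the chromatin assembly factor that places histones on new DNA, read 9.31, 9.33, 9.31 and 9.44 on knockout and 8.07, 7.88, 7.90, 8.23 and 7.86 on wildtype arrays (difference 1.38, SE 0.17, adjusted p = 0.00409). In both genes the knockout arrays lay close together, with SDs of 0.08 and 0.06, unlike Clspn. Clspn encodes claspin, which links the fork to the checkpoint kinase Chek1, and read 10.79, 9.99, 10.58 and 10.71 in knockout and 8.02, 8.58, 8.46, 8.45 and 8.17 in wildtype cells (difference 2.22, SE 0.27, 4.65-fold, adjusted p = 0.00412). Wdhd1, which couples polymerase alpha to the helicase, read 9.50, 9.20, 9.98 and 9.71 on knockout and 8.30, 8.04, 8.54, 7.97 and 8.16 on wildtype arrays (difference 1.43, SE 0.26, adjusted p = 0.0138), and Timeless had 1.36 (adjusted p = 0.0200).

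Of the subunits of RPA, which coats single-stranded DNA, Rpa3 rose by 1.02 (adjusted p = 0.0156), a call that ended without WT1, WT2 or KO1 (adjusted p up to 0.0650). Rpa2 read 10.68, 10.56, 10.57 and 10.95 on knockout and 10.07, 9.98, 9.90, 10.16 and 10.07 on wildtype arrays (difference 0.67, adjusted p = 0.0452), with 0.33 on its other probe set (adjusted p = 0.430). Rpa1 read 11.90, 11.76, 12.002 and 12.18 on knockout and 11.64, 11.48, 11.47, 11.72 and 11.50 on wildtype arrays (difference 0.40, 95% interval -0.0041 to 0.81, adjusted p = 0.165). For all 3 every knockout array lay above every wildtype array. Tipin, Chaf1b and Clspn kept their calls in each fit without 1 array and were the 3 genes of this group called without WT2. Without WT2 the adjusted p of Wdhd1 was 0.153 and that of Timeless 0.209, and the call of Rpa2 ended in 8 of 9 fits (adjusted p 0.0448 to 0.331).

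The promoter of Clspn, the gene of largest difference in this group, is shown with its E2F core in capitals, which begins at position 21 after the start of transcription, at chr4:126556730-126557029 (plus strand) of GRCm38.p6 (RefSeq).
Clspn: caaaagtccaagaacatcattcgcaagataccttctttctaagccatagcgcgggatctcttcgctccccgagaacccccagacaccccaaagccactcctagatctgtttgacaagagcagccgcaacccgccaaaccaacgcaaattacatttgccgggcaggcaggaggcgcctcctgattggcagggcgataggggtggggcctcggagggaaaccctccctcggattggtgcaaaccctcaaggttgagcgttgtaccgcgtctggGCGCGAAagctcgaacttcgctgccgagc

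Within batches, the differences were alike in direction. Positive differences were found for 47 of the 49 genes in batch 1 and for 48 in batch 2, and 46 had the same sign in both. The medians of the 49 genes were 0.99 in batch 1 and 0.97 in batch 2, beside -0.01 and 0.19 over all genes tested. The exceptions were Orc3 (0.02 in batch 1 and -0.11 in batch 2), Orc4 (-0.02 and 0.48) and Orc5 (-0.14 and 0.15). Clspn had the smallest p for a change of the difference between the batches: 2.77 in batch 1, and in batch 2 1.85 (interaction -0.92, SE 0.48, adjusted p = 0.431 by limma). For 0 of the 49 genes did this interaction pass an adjusted p of 0.05, and 0 had an unadjusted p under 0.05, against 3 and 1926 of the 14524 genes tested (0.0207% passing). Batch 1 holds 1 array of each genotype, so the interaction rests on the spread within the other batches. From batch 2 by itself, with WT2 taken to vary as the knockout arrays do, limma called 0 of the 49 genes and 0 of all genes, with 34 of the 49 and 3673 of all genes at an unadjusted p under 0.05.

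**Figure D4:**
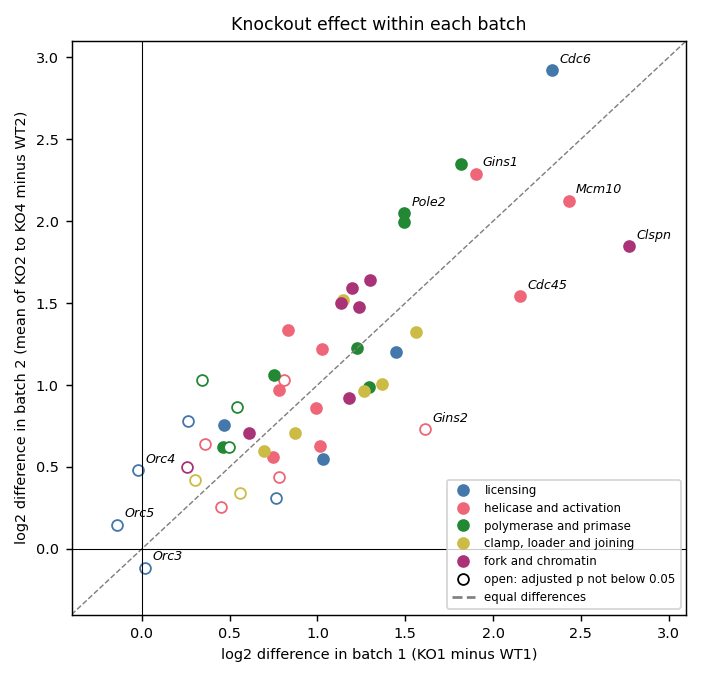
Knockout minus wildtype difference (log2) in batch 1 (x axis, KO1 minus WT1) and in batch 2 (y axis, mean of KO2 to KO4 minus WT2) for the 49 genes, coloured by role, with equal differences along the dashed line. The points run along this line with medians of 0.99 and 0.97, and Orc3, Orc4 and Orc5 lie near 0 in at least one batch.

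Single arrays set how many of the 49 genes passed. Without WT2, the lone wildtype array of batch 2, 11 genes were called, and without KO2 35. The other fits without 1 array called 22 to 28, with a median difference of the 49 genes of 0.83 to 1.02 over all 9 fits. Of the 33 called genes, 11 were called in each of the 9 fits, namely Cdc6, Gmnn, Cdc45, Gins1, Prim1, Pole2, Rfc3, Lig1, Chaf1b, Tipin and Clspn. A further 8 lost their call without WT2 alone, and 7 were called in 1 or 2 of the fits. The share of all genes called higher was 3.79% without WT2 and 10.4% without KO2.

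Other probe sets of the same genes were examined too. Of the 49 genes, 36 had more than 1 probe set, with 55 others in all, of which 51 passed the filter. In the fit over all 26876 probe sets, 18 of these 51 were higher and 0 lower, against 6.46% of all probe sets higher, and 44 had the sign of the probe set used. Of the 12 uncalled genes with another probe set past the filter, 4 had one that was higher: Orc1 (1.30, adjusted p = 0.00899), Mcm5 (1.47, adjusted p = 0.00849), Gins2 (1.54, adjusted p = 0.0104) and Dbf4 (0.89, adjusted p = 0.0289). Those of Orc3 (-0.23 and 0.13) and Orc4 (-0.32, 0.05 and -0.25) did not pass, with adjusted p of 0.307 to 0.889. Among called genes, the other probe sets of Cdc45 (-0.20, adjusted p = 0.487) and Cdc7 (-0.04, adjusted p = 0.925) had the opposite sign.

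Beyond these 49, other genes of replication were examined from lists chosen by their roles. Of 10 partners of initiation and checkpoint, 4 rose and 0 fell (median 0.50). The checkpoint kinase gene Chek1, partner of claspin, averaged 9.98 ± 0.26 in knockout and 7.77 ± 0.13 in wildtype cells (difference 2.25, SE 0.21, adjusted p = 0.00260), and Ticrr (treslin), which helps load Cdc45, 7.63 ± 0.34 in knockout and 5.95 ± 0.32 in wildtype cells (difference 1.73, adjusted p = 0.0113). Mtbp (0.82) and Topbp1 (0.68), which act with treslin, rose as well, but each in 1 of the 9 fits without 1 array (adjusted p up to 0.0993 and 0.253). The upstream kinase Atr had 0.04 (adjusted p = 0.928).

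Of 8 genes that limit licensing through degradation or cyclin A, 4 rose and 0 fell (median 1.07). They were the cyclin gene Ccna2 (1.84, adjusted p = 0.00363), Fbxo5 (1.36, 0.00731), an inhibitor of the anaphase-promoting complex, Dtl (1.25, 0.0141), which targets Cdt1 on chromatin, and Skp2 (1.24, 0.0296), an F-box protein that also targets Cdt1. Components of the Cul4 ligase, for which Dtl is a substrate receptor, did not pass: Cul4a 0.91, Cul4b 0.27, Ddb1 0.22 and Rbx1 -0.03 (adjusted p 0.0899 to 0.948). The call of Skp2 ended without WT1, WT5, KO1, KO3 or KO4 (adjusted p up to 0.0847).

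Of 14 accessory enzymes and subunits, 4 rose and 0 fell (median 0.68): the nuclease gene Dna2 (2.39, adjusted p = 0.00458), the topoisomerase gene Top2a (1.32, 0.00932), the alternative clamp loader gene Chtf18 (1.46, 0.0289) and Rnaseh2b (0.84, 0.0403), a subunit of the enzyme that removes RNA from DNA. The small polymerase subunits Pole4 (0.11, adjusted p = 0.626) and Pold4 (-0.55, adjusted p = 0.180) did not pass. Calls ended for Chtf18 without WT1, WT2, WT5, KO1 or KO3 (adjusted p up to 0.242) and for Rnaseh2b in all but the fit without KO2 (up to 0.140).

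Of 10 genes of replication-coupled chromatin, 5 rose and 0 fell (median 0.81), among them the histone chaperone gene Asf1b (1.52, adjusted p = 0.00447), Uhrf1 (1.001, 0.0131), which guides maintenance methylation of DNA, Nasp (0.79, 0.0167), a chaperone of linker and core histones, and the Pcna-binding factor gene Pclaf (1.03, 0.0255). Nasp lost its call without WT1, WT2 or KO1, and Pclaf without WT1, KO1 or KO3 (adjusted p up to 0.0854 and 0.0828). With the mean of all its probe sets Nasp had -0.09.

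Enzymes of repair and translesion synthesis, which work largely outside replication, were examined as well. Of 14 such genes, 4 rose and 0 fell (28.6%, median 0.69), and whether this share differs from that of the replication genes was not tested. They were Mcm8 (1.43, adjusted p = 0.00409), a relative of the Mcm ring that acts in recombination, the end-joining ligase gene Lig4 (2.12, 0.00732), the base excision polymerase gene Polb (1.13, 0.0234) and Rev3l (1.01, 0.0390), catalytic subunit of polymerase zeta. Mcm8 and Lig4 were called in each fit without 1 array. Polb lost its call without WT2 or KO3 (adjusted p up to 0.399) and Rev3l without WT2, WT3, WT5, KO3 or KO4 (up to 0.448), and with the mean of all its probe sets Rev3l had -0.43. Polymerases Poli (-0.02), Poll (-0.20) and Polm (-0.13) had negative differences that did not pass (adjusted p 0.669 to 0.972).

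The promoters of these genes were searched for motifs too. E2F factors drive many replication genes, so a high share of E2F cores goes with the choice of genes. The part of these cores in the differences was not tested. RefSeq promoters on GRCm38.p6 were at hand for 41 of the 50 genes, in 50 windows of 300 bases. An E2F core, taken as the letters TTCCCGC, the letters TTCGCGC, the letters TTGCCGC or the letters TTGGCGC on either strand with overlaps allowed, was present in 31 of these 50 windows (62.0%), beside 9.57% of all 32851 promoters and 15.0% of the 14725 promoters of genes tested. Windows of genes called higher held it in 24 of 34 (70.6%) and those of uncalled genes in 6 of 15 (40.0%), the remaining window being that of Chaf1a. These shares count windows and not genes, and the windows belong to 28 called and 12 uncalled genes. Of the 41 genes, 7 had more than 1 window, and whether the shares differ was not tested. Of 52 matches, 37 began from 100 bases before to 50 after the start of transcription. Other elements of cell cycle promoters were counted too. The CHR element, TTTGAA, was in 16.0% of member windows and 12.6% of those of genes tested, and the CCAAT box, CCAAT, in 25 of the 50 and in 37.0%. A match is a run of letters and no measured binding. Cdc45, which rose by 1.79, had no E2F core in its window, and Orc3, with -0.06, had 1.

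**Figure D5:**
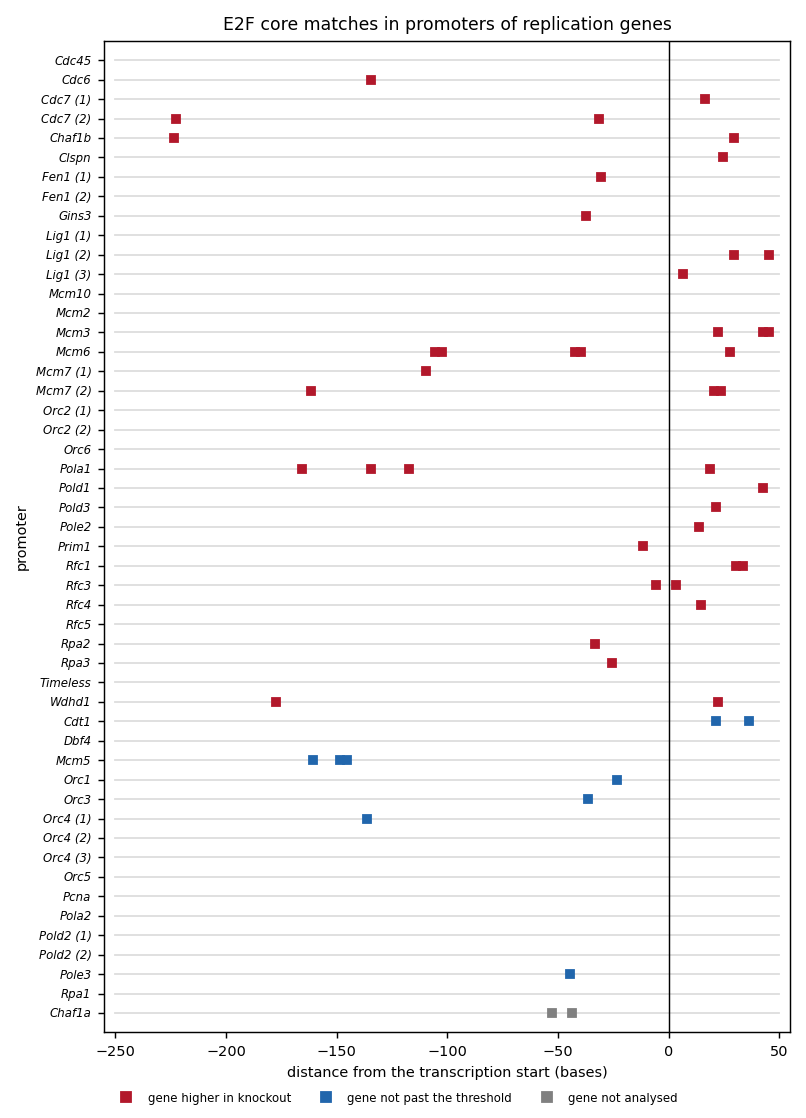
Positions of E2F core matches (squares) in the 50 promoter windows, as distance in bases from the start of transcription (x axis, vertical line at 0), with promoters of genes higher in knockout cells in red, uncalled genes in blue and Chaf1a in grey. Matches lie mostly near the start, 37 of 52 within 100 bases before it or 50 after.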

How the data were processed

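Thymic iNKT cell RNA from 4 Utx knockout and 5 wildtype samples was measured on arrays with 45101 probe sets, after amplification from small amounts and biotin labelling, per the labels' protocols. The deposited values are log2 levels, which the authors made with RMA, as the submitters' processing notes name it without a version. Amplification and probe summaries can compress differences. Arrays give no depth, and their number limits precision.

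Genes were named through the platform annotation: 34945 probe sets had 1 gene, 932 several and 9160 none, and 64 were controls. The probe set of highest mean stood for each of 18193 genes, and 14524 genes were tested, those whose mean exceeded 4.54, the level below which 25% of probe sets lie. limma 3.58.1 (R 4.3.3; lmFit and eBayes, genotype and batch as fixed factors, two-sided, Benjamini-Hochberg over all genes tested, threshold 0.05) gave differences, SEs and adjusted p-values. Intervals are 95% from the moderated t distribution with 8.5 degrees of freedom. p-values measure the spread between arrays. Promoters came from RefSeq (GRCm38.p6). Alternatives covered the batch term, replicate number, filter, scaling, probe sets, eBayes, weights, thresholds and each array in turn. Of the 49 genes, all may be named, with array values for up to 4 of smallest and 2 of largest p in each role, and in the other lists up to 4 of smallest p. Cul4a, Cul4b, Ddb1, Rbx1, Atr, Pole4, Pold4, Poli, Poll, Polm and the single genes of the marker lists were named after their values were seen. Members and lists were chosen with earlier results of these data known.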

Additional observations from a re-analysis of the deposited data

Results flagged for a closer look

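A few arrays stood apart from the others of their genotype by a gap large relative to the range of the group, in 4 of 98 sets of array values (49 genes in 2 genotypes), where chance gives about 1 in 20. In 3 of them KO2 was lowest: Cdc45 read 8.83 on KO2, next to 9.48 on the nearest knockout array, Prim2 9.47 next to 10.13, and Rfc1 11.02 next to 11.21. In the remaining one Chaf1b read 9.44 on KO4, next to 9.33 on the nearest. KO2 lay above every wildtype array for Cdc45, Prim2 and Rfc1.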

How the results depend on the processing

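No setting called any of the 49 genes lower, and 47 or 48 differences were positive in every fit run. With main counts of 33 genes of 49 (4 licensing, 9 helicase, 7 polymerase, 6 clamp and 7 fork genes) and 1144 higher and 490 lower of all genes, the settings that moved a count were as follows. No batch term gave 4038 higher and 2304 lower of all genes. Batch as a random block (consensus correlation -0.32) gave 6166 and 3879, with 7 licensing and 14 helicase genes. Another quantile normalization gave 1043 higher and 745 lower, 58.3% of calls higher in place of 70.0%, with 27 of the 49 and 2 licensing genes. With it the median difference of the 49 was 0.79 in place of 0.94. Array weights gave 408 and 126, 14 of the 49, and 2, 4, 4, 1 and 3 by role. Without the wildtype arrays of batch 3 there were 274 and 66, 10 of the 49, and 2, 2, 2, 1 and 3. Batch 2 alone gave 0 throughout (34 of the 49 at an unadjusted p under 0.05). Without the batch 1 pair 2 licensing and 3 clamp genes were called. A threshold of 0.01 gave 271 and 65, 11 of the 49, 2, 2, 3, 1 and 3 by role and 7 of the other probe sets in place of 18, and one of 0.1 gave 2019 and 1014. Leaving out 1 array gave 550 to 1508 higher and 249 to 576 lower, 11 to 35 of the 49, and 2 to 4, 2 to 10, 2 to 8, 2 to 6 and 3 to 7 by role. Without WT2 56.8% of calls were higher. Signs turned for uncalled genes: Orc5 with the random block (-0.026) or quantile normalization (-0.24), Orc4 with mean probe sets (-0.061) and Kdm6a with weights (0.022). Without 1 array, Orc3 ran from -0.11 to 0.018 (positive without WT2), Orc4 from -0.022 to 0.48 (negative without WT2), Orc5 from -0.14 to 0.15 (negative without WT2 or KO4) and Kdm6a from -0.066 to 0.076 (positive without WT2 or KO2). Of called genes, Nasp (-0.087) and Rev3l (-0.43) turned with mean probe sets. The cause was not tested. The filters and eBayes settings moved no count of the 49 by more than 1.5 times.

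The replicate numbers were not taken as pairs. Deviations of same-numbered arrays correlated at -0.92, 0.09, 0.02 and 0.15 for numbers 1 to 4, and numbers 3 and 4 lie in different batches. KO1 and WT1 alone make up batch 1, and batch may have been removed before deposit. Their correlation thus cannot decide whether number 1 is a pair. With the replicate number as a replicate block in place of batch, 2816 genes were higher and 1474 lower, with 40 of the 49, Orc5 had -0.025, and 1 of 4 knockout arrays correlated best with the wildtype array of its number.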
